A study of Homo sapiens with 30 samples.

Results

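RNA was sequenced from A549 cells after 24 h with an ethanol extract of Soshiho-tang at 100 µg/mL, in 3 libraries, and set against 3 libraries from cells given vehicle, which is dimethyl sulfoxide (DMSO) at 0.1% per the labels. These 6 libraries were chosen by their titles and treatment labels out of 30 in the series. A549 is a cell line derived from a human lung tumour and is a common stand-in for lung epithelial cells. Soshiho-tang at 20 and 500 µg/mL (3 libraries each), Yijin-tang at 100 µg/mL (3 libraries) and Okbyeongpung-san at 100 µg/mL (2 libraries) served as further groups, all ethanol extracts of herbal formulas given to the same line for the same time. The libraries of these groups carry batch E in their titles except 1 of Okbyeongpung-san, which carries batch D, and the model fit across all replicated groups held 2 further batch D libraries, of Okbyeongpung-san at other doses; the meaning of these letters is not given. Whether replicates came from separate cultures is not in the labels, so p-values measure the spread between libraries, which may be technical.

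Soshiho-tang is a traditional formula built around Bupleurum root and Scutellaria root, with Pinellia, ginger, ginseng, jujube and licorice, and is known in China as Xiao Chai Hu Tang and in Japan as Sho-saiko-to. Plant extracts hold many flavonoids, some of which bind the aryl hydrocarbon receptor, a ligand-activated transcription factor that moves to the nucleus, pairs with ARNT and switches on CYP1A1, CYP1B1 and TIPARP. Metallothioneins are small cysteine-rich proteins that bind zinc and copper, and their genes are switched on by the metal sensor MTF1. In airway epithelium the gel-forming mucins MUC5AC and MUC5B make up much of the mucus layer.

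Genes of the aryl hydrocarbon receptor and the metallothionein genes included some of the clearest single differences at 100 µg/mL, and their promoter windows are therefore shown, from 250 bases before to 50 bases after the start site, on the gene's strand. The sequences are from RefSeq on GRCh38.p14, and 4 of the 5 genes looked up had an entry, CYP1B1 being the fifth. Capitals in CYP1A1 (chr15:74725479-74725778, minus strand) and TIPARP (chr3:156674340-156674639, plus strand) mark GCGTG, the core bound by the aryl hydrocarbon receptor with ARNT, on either strand. CYP1A1 had 1 match, with its first base at position −57 from the start site, and TIPARP had 2 matches. Of all 35116 promoters in the table, 36.5% had at least 1 match and 12.7% had 2 or more.
CYP1A1: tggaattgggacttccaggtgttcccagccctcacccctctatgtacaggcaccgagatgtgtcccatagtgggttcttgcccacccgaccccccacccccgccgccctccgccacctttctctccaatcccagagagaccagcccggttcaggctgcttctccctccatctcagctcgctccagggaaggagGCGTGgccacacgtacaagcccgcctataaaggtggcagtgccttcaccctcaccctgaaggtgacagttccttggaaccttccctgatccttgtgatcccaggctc
TIPARP: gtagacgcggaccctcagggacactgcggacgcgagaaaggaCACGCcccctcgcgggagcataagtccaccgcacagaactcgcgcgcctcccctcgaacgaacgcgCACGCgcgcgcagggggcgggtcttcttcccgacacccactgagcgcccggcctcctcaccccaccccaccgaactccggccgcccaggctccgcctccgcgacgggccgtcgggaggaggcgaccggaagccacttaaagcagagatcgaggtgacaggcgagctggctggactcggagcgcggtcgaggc
Capitals in MT2A (chr16:56608334-56608633, plus strand) and MT1X (chr16:56682220-56682519, plus strand) mark TGCGCNC or TGCACNC, the core of the metal response element, on either strand. MT2A had 8 matches and MT1X had 4, while 29.6% of all promoters had at least 1 match and 0.601% had 4 or more. A match describes the letters only; binding was not measured.
MT2A: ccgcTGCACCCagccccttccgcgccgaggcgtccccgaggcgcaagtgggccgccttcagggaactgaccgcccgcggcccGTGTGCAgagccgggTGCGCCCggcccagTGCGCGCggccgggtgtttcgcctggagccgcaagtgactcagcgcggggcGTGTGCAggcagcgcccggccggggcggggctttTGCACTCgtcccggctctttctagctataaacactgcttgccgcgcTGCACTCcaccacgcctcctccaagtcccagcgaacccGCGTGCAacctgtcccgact
MT1X: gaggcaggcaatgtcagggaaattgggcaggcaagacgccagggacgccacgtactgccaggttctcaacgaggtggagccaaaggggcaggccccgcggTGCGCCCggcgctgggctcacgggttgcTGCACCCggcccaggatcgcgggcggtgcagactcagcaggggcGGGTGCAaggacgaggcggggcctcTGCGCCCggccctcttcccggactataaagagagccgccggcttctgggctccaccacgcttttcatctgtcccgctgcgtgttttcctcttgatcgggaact

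The Soshiho-tang 100 µg/mL libraries held 24560802 to 33199931 counts and the vehicle libraries 19833172 to 22327675. The 13 mitochondrially encoded messenger RNAs took 7.96% to 8.90% of counts in the Soshiho-tang libraries and 10.5% to 10.9% in the vehicle libraries, groups that did not overlap (exact two-sided permutation test, p = 0.1, the smallest that 3 against 3 allows). On the first principal component of the fitted libraries, which holds 15.6% of the variance, the Soshiho-tang 100 µg/mL libraries lay at 12.3, 7.79 and −11.7 and the vehicle libraries at −34.8 to −35.9. The Soshiho-tang libraries also varied more among themselves: over 5819 well-measured genes the median SD of log2 CPM (CPM being counts scaled to a common library total) was 0.0777 for Soshiho-tang and 0.0387 for vehicle. Of 13 epithelial genes 12 were above 1 CPM. Of 10 alveolar type 2 genes 2 were above 1 CPM (ABCA3 and ETV5), with a list sum of 86.4 to 87.9 CPM with Soshiho-tang and 87.1 to 89.0 CPM with vehicle, while SFTPA1 and NKX2-1 were at 0 in all 6 libraries. Of 10 immune markers 2 were above 1 CPM (CD14 and CD68), with a sum of 11.9 to 14.4 CPM with Soshiho-tang and 14.9 to 17.5 CPM with vehicle, while PTPRC, CD3E, CD3D and MS4A1 were at 0; their part in the results was not tested. All comparisons with vehicle share the 3 vehicle libraries, and a property of those libraries cannot be told apart from an effect of the extract.

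The first comparison asks which transcripts differ between cells given the intermediate dose of Soshiho-tang and cells given vehicle. Of 17461 genes tested, 1879 (10.8%) were called at an adjusted p below 0.05 (edgeR quasi-likelihood test, Benjamini-Hochberg adjustment over all genes tested), 973 higher (5.57%) and 906 lower (5.19%) with the extract. Most differences were small. Only 51 of the higher and 81 of the lower genes changed by at least 2-fold (0.292% and 0.464% of genes tested), and the median absolute log2 fold change was 0.31 among higher and 0.33 among lower genes. Higher genes had a median transcript length of 2410 bases and lower genes 4573 bases, beside 3181 for all genes tested with a length. The libraries of the groups did not overlap for 31.8% of genes tested. The count of called genes depended on single libraries, at 682 and 919 without Soshiho-tang replicate 1 or 2, and 976, 895 and 849 without vehicle replicate 1, 2 or 3.

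The plot of called members by gene list shows only lists with at least 3 called members. That rule favours lists above the shares among all genes tested, so the plot does not show how lists in general behaved. Among those left out, 0 of 20 aminoacyl-tRNA synthetases and 0 of 11 FOXO targets were called. Of 24 interferon-stimulated genes 1 was called higher and 0 lower.

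**Figure D1:**
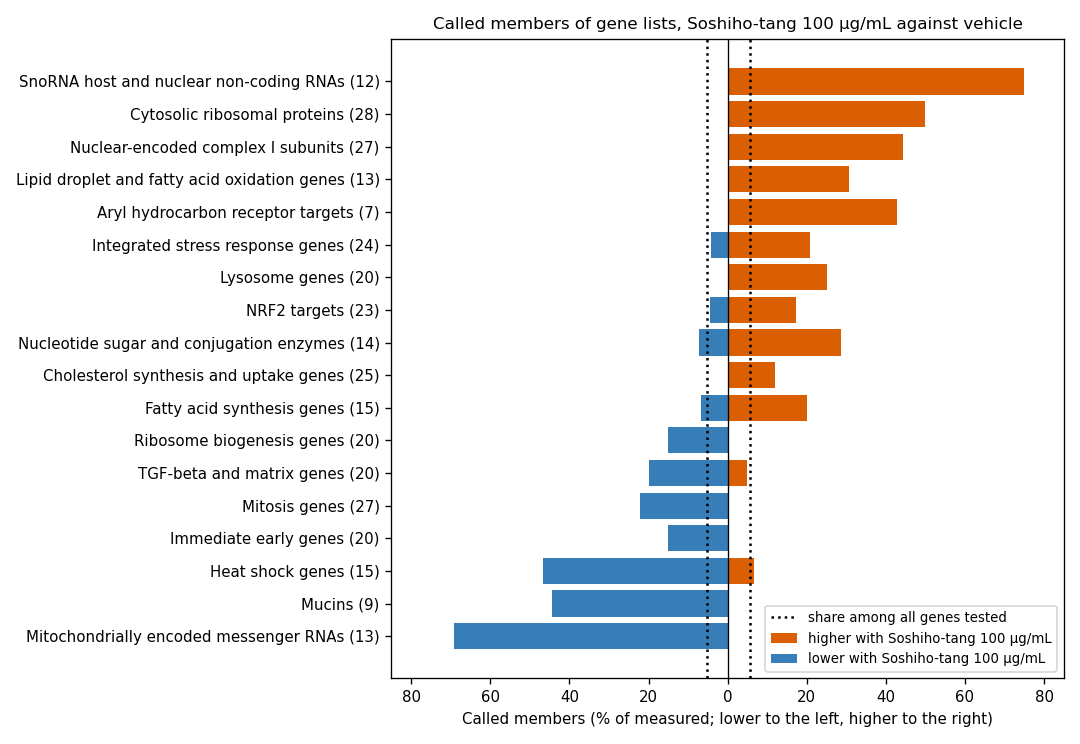
Share of measured members (number in parentheses) called higher (right, orange) or lower (left, blue) with Soshiho-tang 100 µg/mL against vehicle, for the lists with at least 5 measured and at least 3 called members, ordered by median log2 fold change; dotted lines mark the shares among all genes tested, 5.57% higher and 5.19% lower. The 12 snoRNA host and nuclear non-coding RNAs lead with 9 called higher, and the 13 mitochondrial messenger RNAs lie at the other end with 9 called lower.

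Among targets of the aryl hydrocarbon receptor, 3 of 7 measured members rose and 0 fell, with a median log2 fold change of 0.14, beside 0.00426 over all genes tested. CYP1A1, a cytochrome P450 that oxidises polycyclic aromatic compounds (ENSG00000140465, chromosome 15, 74719542 to 74725610, minus strand, GRCh38), was at 3.11, 2.47 and 2.60 CPM with Soshiho-tang and at 0.627, 1.24 and 0.751 CPM with vehicle. Every treated library lay above every vehicle library, and the gene rose by 1.64 ± 0.20 on the log2 scale (SE; adjusted p = 3.0e-05). CYP1B1, a related P450 that also hydroxylates oestrogens (ENSG00000138061, chromosome 2, 38066973 to 38109902, minus strand), was at 136, 151 and 154 CPM with the extract and at 104, 99.8 and 98.4 CPM with vehicle, a rise of 0.55 ± 0.06 (adjusted p = 2.0e-05). TIPARP, an ADP-ribosyltransferase that dampens the receptor, rose by 0.36 ± 0.08, at 46.5, 55.5 and 54.9 CPM against 40.3, 39.9 and 41.7 CPM with vehicle (adjusted p = 0.0047). The receptor's repressor AHRR did not pass the test, at 5.04 ± 0.134 CPM with the extract and 5.29 ± 1.18 CPM with vehicle (SD, n = 3 each), and neither did NQO1, a quinone reductase (log2 fold change 0.14, adjusted p = 0.084). AHR, the receptor itself, was at 47.4, 55.0 and 59.4 CPM with Soshiho-tang and 67.4, 67.6 and 67.0 CPM with vehicle (−0.32 ± 0.10, adjusted p = 0.043), and ARNT was at 38.5, 38.4 and 43.5 CPM against 44.4, 49.8 and 43.7 CPM with vehicle (−0.19 ± 0.06, adjusted p = 0.0497). Both fell, with calls lost without Soshiho-tang replicate 1 or 2 or any vehicle library, and that of ARNT also in batch E alone, with no filter on low counts, without mitochondrial genes and with only these groups in the fit. CYP1A2 and LRAT were too low to test.

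Of the 4 measured members of the metallothionein list, MT2A and MT1X rose and the other 2 did not pass the test. MT2A was at 78.4, 77.4 and 71.0 CPM with Soshiho-tang and at 40.5, 40.7 and 42.3 CPM with vehicle. The groups lay far apart compared with their own spread, and the rise was 0.88 ± 0.11 on the log2 scale (adjusted p = 3.0e-05). MT1X was at 13.1, 12.03 and 11.4 CPM with the extract and 9.41, 9.12 and 9.81 CPM with vehicle (log2 fold change 0.37 ± 0.10, adjusted p = 0.022), but lost its call when Soshiho-tang replicate 1 or 2 or any vehicle library was left out, with adjusted p up to 0.12. MT1F (0.33, adjusted p = 0.43) and the zinc exporter SLC30A1 (0.11, adjusted p = 0.51) did not pass.

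Of 9 measured genes of the mucin list, which also holds the trefoil factor TFF1, 4 fell and 0 rose, and the median log2 fold change was −0.36. MUC5AC, the main gel-forming mucin of airway goblet cells, was at 192, 213 and 272 CPM with Soshiho-tang and at 337, 300 and 343 CPM with vehicle (−0.53 ± 0.11, adjusted p = 0.0048). All treated libraries were below all vehicle libraries, and replicate 3 lay nearest to them. MUC5B, the other gel-forming airway mucin, was at 40.5, 51.5 and 70.2 CPM against 90.7, 70.7 and 90.6 CPM with vehicle (−0.63 ± 0.16, adjusted p = 0.014), and its call was lost without Soshiho-tang replicate 1 or 2 or vehicle replicate 1 or 3, with adjusted p up to 0.10. The membrane mucin MUC3A was at 3.29, 3.56 and 3.42 CPM against 5.86, 6.84 and 6.47 CPM with vehicle (−0.90 ± 0.17, adjusted p = 0.0021). MUC2, an intestinal gel-forming mucin, was low in both groups, at 0.403, 0.486 and 0.550 CPM with the extract and 1.41, 0.991 and 1.64 CPM with vehicle (−1.48 ± 0.31, adjusted p = 0.0045). MUC1, MUC13, MUC16, MUC20 and TFF1 did not pass the test, with log2 fold changes between −0.36 and −0.13.

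Of 15 heat shock genes 7 fell, 1 rose and 7 did not pass the test, with a median of −0.21. HSP90AA1, the inducible cytosolic HSP90 chaperone, was at 2219, 2187 and 2215 CPM with Soshiho-tang and at 2740, 2749 and 2740 CPM with vehicle. Replicates differed little within each group, and the fall was −0.31 ± 0.05 (adjusted p = 0.00045). HSPH1, a nucleotide exchange factor for HSP70, fell by 0.33 on the log2 scale (adjusted p = 0.0020), and the inducible HSP70 gene HSPA1B was at 122, 119 and 144 CPM against 202, 187 and 197 CPM with vehicle (−0.61 ± 0.13, adjusted p = 0.0049). HSPA1B and its neighbour HSPA1A (−0.37) are near-identical copies, so their separate counts are uncertain, and HSPA1A lost its call without Soshiho-tang replicate 1 or 2 or any vehicle library. The co-chaperones BAG3 (−0.30) and STIP1 (−0.22) and the constitutive HSP90 gene HSP90AB1 (−0.17) were the other members that fell, each with its call lost without Soshiho-tang replicate 2 or vehicle replicate 2. HSPE1, the mitochondrial co-chaperonin HSP10, rose by 0.38 ± 0.08 (adjusted p = 0.0036). The count of lower members was 4 and 3 without Soshiho-tang replicate 1 or 2, and 3 without vehicle replicate 2.

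Among immediate early genes 3 of 20 measured members fell and 0 rose. FOSL1, an AP-1 subunit induced by growth factor signalling, was at 20.5, 20.3 and 23.0 CPM with Soshiho-tang and 33.4, 32.8 and 35.6 CPM with vehicle (−0.67 ± 0.11, adjusted p = 0.00074). NR4A1, an orphan nuclear receptor of the same early wave, was at 26.8, 25.0 and 28.5 CPM against 36.2, 35.8 and 37.8 CPM with vehicle (−0.45 ± 0.08, adjusted p = 0.0012). In both genes the groups were well apart. FOSL2 was the other called member (−0.15, adjusted p = 0.032), a call that ended without Soshiho-tang replicate 1 or 2, without any vehicle library, with no filter on low counts, with an offset for length and GC content, and with only these groups in the fit. JUN and EGR1 did not pass, with log2 fold changes of −0.11 and −0.42. The count of lower members was 5 without Soshiho-tang replicate 3 and 6 with the offset.

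The integrated stress response is a programme run by the transcription factor ATF4. Of 24 genes of its list, which covers amino acid synthesis and transport and stress factors, 5 rose and 1 fell, with a median of 0.12. PCK2, the mitochondrial form of phosphoenolpyruvate carboxykinase, was at 42.7, 37.6 and 34.6 CPM with Soshiho-tang and 27.6, 28.8 and 28.1 CPM with vehicle (0.44 ± 0.07, adjusted p = 0.00051). ASNS, which makes asparagine, was at 126, 120 and 109 CPM against 95.7, 96.1 and 90.1 CPM with vehicle (0.33 ± 0.06, adjusted p = 0.0012). PHGDH and PSAT1, enzymes of serine synthesis, rose by 0.39 and 0.24 (adjusted p = 0.0025 and 0.0045). DDIT3, which encodes the stress factor CHOP, did not pass the test and was at 7.40, 8.59 and 7.42 CPM against 8.58, 9.22 and 7.46 CPM with vehicle (−0.11, adjusted p = 0.62). TRIB3, a pseudokinase induced by CHOP (0.18, adjusted p = 0.20), and STC2 (0.19, adjusted p = 0.071) did not pass either. SESN2, a leucine sensor, fell to 11.02, 10.98 and 11.7 CPM, against 14.8, 16.7 and 14.2 CPM with vehicle (−0.44 ± 0.11, adjusted p = 0.014), a call lost without Soshiho-tang replicate 1 or 2 or vehicle replicate 2. DDIT4, an inhibitor of mTORC1, rose by 0.26 (adjusted p = 0.040), a call lost without Soshiho-tang replicate 1 or 2 or any vehicle library. With the offset for length and GC content 8 members were higher.

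In other metabolic groups most members were not called, and the called changes named here were small. The shares called higher were 17.4% of NRF2 targets, 30.8% of lipid droplet and fatty acid oxidation genes and 25% of lysosome genes. Among all genes tested the share was 5.57%. Of 23 NRF2 targets 4 rose and 1 fell: HMOX1, haem oxygenase 1, was at 179, 169 and 176 CPM against 146, 145 and 143 CPM with vehicle (0.27 ± 0.06, adjusted p = 0.0059), AKR1C3, a hydroxysteroid dehydrogenase, rose by 0.49 and the efflux pump ABCC3 by 0.26, while glutathione reductase, GSR, fell by 0.18, a call lost without vehicle replicate 2 and with no filter on low counts. The count of higher members was 7 without Soshiho-tang replicate 3 and with DESeq2. AKR1C2 (0.17, lost without Soshiho-tang replicate 1 or 2, without any vehicle library and with the offset) was the other called member and, like AKR1C3, belongs to a family of close copies with uncertain counts. Of 13 genes of lipid droplets and fatty acid oxidation 4 rose and 0 fell, among them ACADVL, a mitochondrial acyl-CoA dehydrogenase (0.32 ± 0.07, adjusted p = 0.0035), and CPT1A (0.29, adjusted p = 0.013, lost without Soshiho-tang replicate 1); their count was 2 without Soshiho-tang replicate 1 or 2 or vehicle replicate 1. Lysosome genes showed 5 of 20 higher and 0 lower, led by cathepsin L, CTSL, at 257, 254 and 253 CPM against 211, 208 and 209 CPM with vehicle (0.28 ± 0.06, adjusted p = 0.0048), but their count was 1 to 3 when any library was left out. HMGCS1, the cytosolic HMG-CoA synthase of cholesterol synthesis, did not pass the test, at 176, 182 and 161 CPM against 179, 178 and 169 CPM with vehicle (adjusted p = 0.90).

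Genes of cell division and growth control changed in part. Of 27 mitosis genes 6 fell and 0 rose, with a median of −0.09. MKI67, the proliferation marker Ki-67, was at 531, 629 and 687 CPM with Soshiho-tang and 816, 833 and 860 CPM with vehicle (−0.44 ± 0.09, adjusted p = 0.0045), and the kinetochore motor CENPE fell by 0.45 (adjusted p = 0.0025). ANLN, KIF20A, PLK1 and KIF23 also fell, by 0.26, 0.25, 0.24 and 0.20, and each lost its call without Soshiho-tang replicate 1. The count of lower members was 2 without Soshiho-tang replicate 1, 3 without vehicle replicate 3 and 10 with the offset. Of 32 DNA replication genes 1 rose (RFC4, 0.23, lost without Soshiho-tang replicate 1 or vehicle replicate 1 or 3) and 1 fell (MCM4, −0.13, lost without Soshiho-tang replicate 1 or 2 or any vehicle library). Each is 3.1% of that list, below the 5.57% higher and 5.19% lower among all genes tested. Of 22 p53 targets 1 rose and 1 fell (POLH, −0.33, lost without Soshiho-tang replicate 1 or 2 or vehicle replicate 2 or 3). Each is 4.5% of that list, also below the shares among all genes tested, and the median was 0.02. The member that rose was TP53I3, a p53-inducible quinone reductase. It was at 115, 114 and 105 CPM against 82.0, 86.2 and 86.7 CPM with vehicle (0.39 ± 0.05, adjusted p = 8.2e-05). CDKN1A, which encodes p21, was at 89.7, 90.0 and 84.3 CPM with the extract and 87.3, 92.2 and 83.1 CPM with vehicle. Of 20 TGF-beta and matrix genes TGFBI rose (0.23, adjusted p = 0.0015) and TGFB1, TGFB2, CCN1 and CCN2 fell, a count of lower members that was 1 or 2 without Soshiho-tang replicate 1 or 2 or any vehicle library, and 7 with DESeq2, with the offset and with only these groups in the fit. CCN1, a matricellular target of YAP, kept its call under every alternative run (−0.35 ± 0.06). Of 18 inflammatory genes CXCL5, a neutrophil-attracting chemokine, was higher (0.30 ± 0.08, adjusted p = 0.015), a call lost without Soshiho-tang replicate 2 or vehicle replicate 2. That is 5.56% of the list, beside 5.57% called higher among all genes tested.

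Ribosomal protein, complex I and snoRNA host genes had the highest shares of members called higher among the plotted lists. Of 28 cytosolic ribosomal protein genes 14 rose and 0 fell (median 0.22), of 27 nuclear genes for subunits of respiratory complex I 12 rose and 0 fell (median 0.21), and of 12 snoRNA host and nuclear non-coding RNAs 9 rose and 0 fell (median 0.34). RPS27, a protein of the small ribosomal subunit, was at 619, 628 and 595 CPM with Soshiho-tang and 370, 370 and 352 CPM with vehicle (0.75 ± 0.09, adjusted p = 2.0e-05). NDUFB1, a complex I subunit, was at 64.7, 60.8 and 61.1 CPM against 28.8, 30.6 and 28.2 CPM with vehicle (1.09 ± 0.12, adjusted p = 2.0e-05). In both genes the replicates lay close together and the groups far apart. Replicates of other members lay further apart: RPS12 was at 331, 275 and 178 CPM with the extract and 223, 223 and 234 CPM with vehicle, and NDUFA1 at 91.2, 82.3 and 51.1 CPM against 56.4, 53.6 and 50.6 CPM with vehicle. Neither gene passed the test (adjusted p = 0.58 and 0.14). In both, Soshiho-tang replicate 1 was highest, and replicate 3 lay below the vehicle libraries for RPS12 and among them for NDUFA1.

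The summed level of the ribosomal list was 24401, 22140 and 21135 CPM with Soshiho-tang and 19345, 19875 and 19628 CPM with vehicle, so the groups did not overlap. Without Soshiho-tang replicate 1 the called members numbered 3 ribosomal, 4 complex I and 5 snoRNA host and nuclear RNA genes. The ribosomal count was also 7, 9 and 6 without vehicle replicate 1, 2 or 3, and the snoRNA host and nuclear RNA count was 4 without Soshiho-tang replicate 2 and 5 without any one vehicle library. EPB41L4A-AS1, a snoRNA host, was at 20.6, 19.8 and 16.9 CPM against 14.6, 13.1 and 11.5 CPM with vehicle (0.55 ± 0.08, adjusted p = 0.00041). The nuclear RNA MALAT1, which lacks a coding frame and marks speckles, was at 1361, 1173 and 822 CPM against 637, 607 and 630 CPM with vehicle (0.84 ± 0.23, adjusted p = 0.023); its call was lost without Soshiho-tang replicate 1 or 2 or any vehicle library.

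**Figure D2:**
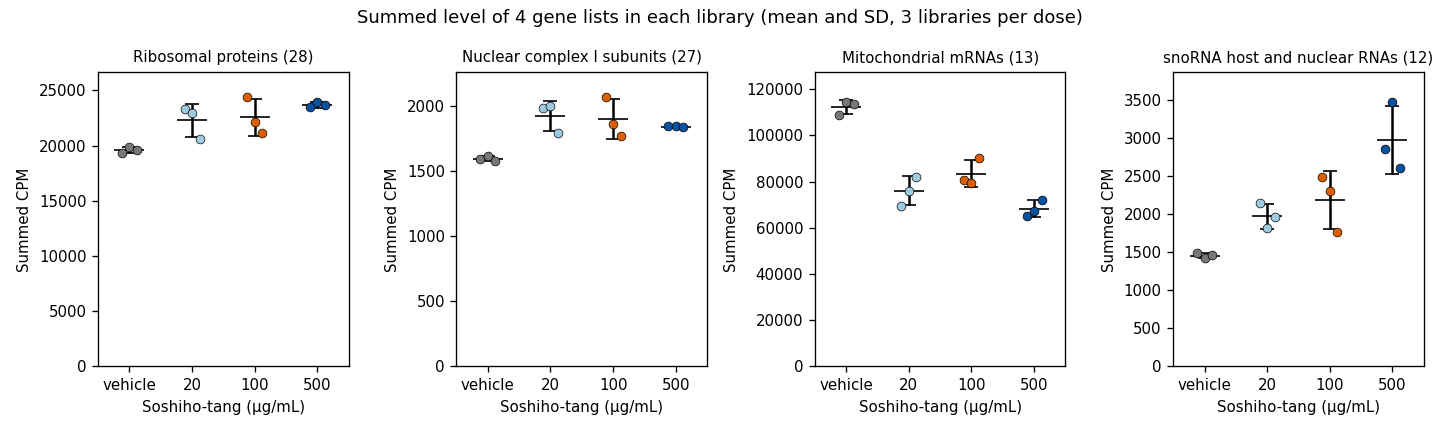
Summed CPM of ribosomal protein genes, nuclear-encoded complex I subunits, mitochondrial messenger RNAs, and snoRNA host and nuclear non-coding RNAs in each library, by Soshiho-tang dose (vehicle, 20, 100 and 500 µg/mL); points are libraries in replicate number from left to right, bars the mean and SD of 3. At 100 µg/mL the ribosomal sum was 24401, 22140 and 21135 CPM, above 19345 to 19875 CPM with vehicle.

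Mitochondrially encoded messenger RNAs went the other way, with 9 of 13 lower and 0 higher (median −0.53). This was not particular to this dose or extract. Over the 27 libraries of the series given any extract they took 6.22% to 9.89% of counts, beside 10.5% to 10.9% with vehicle. MT-ATP8, a small subunit of ATP synthase, was at 438, 464 and 605 CPM with Soshiho-tang and 1637, 2129 and 1740 CPM with vehicle (−1.87 ± 0.31, adjusted p = 0.00076). MT-ND6, the complex I subunit coded on the light strand, was at 536, 438 and 486 CPM against 1130, 1157 and 1083 CPM with vehicle (−1.21 ± 0.21, adjusted p = 0.0013). MT-ATP8 overlaps MT-ATP6, and MT-ND4L overlaps MT-ND4, so their split counts are uncertain. In bulk RNA, fewer copies per cell and fewer cells carrying a transcript cannot be told apart.

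Some of the genes with large changes have an uncertain assignment. TUBA1B-AS1, which overlaps the tubulin gene TUBA1B on the opposite strand, was at 0.403, 0.284 and 0.275 CPM with Soshiho-tang and 55.4, 49.6 and 23.3 CPM with vehicle (−7.05 ± 0.50, adjusted p = 9.2e-09). The strand setting of the counting is not stated, so its reads cannot be told apart from those of TUBA1B, which was at 2802, 2580 and 2871 CPM with the extract and 3027, 3231 and 3195 CPM with vehicle. The readthrough gene PEDS1-UBE2V1 fell by 1.68, and AKR1B15, a close copy of AKR1B10, was at 4.39, 4.86 and 4.67 CPM against 12.03, 14.1 and 14.5 CPM with vehicle (−1.55 ± 0.23, adjusted p = 0.00030). Pseudogenes made up 9.93% of lower genes and 1.54% of higher genes, beside 5.39% of all genes tested. Among higher genes, TGFB2-OT1, a transcript from the end of TGFB2, was at 11.9, 8.02 and 3.24 CPM with the extract and 0.993, 1.49 and 0 CPM with vehicle (3.23 ± 0.61, adjusted p = 0.0021). The chloride channel gene BEST1 was at 33.9, 30.5 and 26.0 CPM against 14.5, 14.1 and 14.5 CPM with vehicle (1.07 ± 0.14, adjusted p = 8.2e-05), and SEC61G, a subunit of the protein translocon, was at 79.8, 87.1 and 57.0 CPM against 39.8, 40.1 and 39.4 CPM with vehicle (0.90 ± 0.19, adjusted p = 0.0042).

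Of 8 measured acute phase and hepatocyte genes 2 rose and 0 fell, with a median log2 fold change of 0.13. The share called higher was 25%, beside 5.57% among all genes tested, but it rests on these 2 genes. FGG, the fibrinogen gamma chain, was at 156, 166 and 161 CPM with Soshiho-tang and 135, 129 and 130 CPM with vehicle (0.30 ± 0.05, adjusted p = 0.0011). FGA rose by 0.14 (adjusted p = 0.046), a call lost when any of the 6 libraries was left out. It was also lost with DESeq2 size factors, the offset for length and GC content, no filter on low counts, and only these groups in the fit. FGB did not pass (0.11, adjusted p = 0.33). Albumin, the defining hepatocyte transcript, was at 0 in all 6 libraries.

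Whether the differences grew with dose was asked by setting the 100 µg/mL libraries against those of the same extract at 20 µg/mL, which uses no vehicle library. No gene was called by edgeR (0% of genes tested) or by DESeq2, with 422 genes at an unadjusted p below 0.05 (2.42%). For 74.1% of genes tested the 95% confidence interval of the difference lay within 1.5-fold in either direction, and for 87.3% within 2-fold. CYP1A1 was at 3.11, 2.47 and 2.60 CPM at 100 µg/mL and 3.04, 3.09 and 3.12 CPM at 20 µg/mL, a log2 difference of −0.18 with a 95% interval of −0.49 to 0.14. FOSL1 differed by 0.04 (−0.18 to 0.27), HSP90AA1 by −0.04 (−0.14 to 0.06) and MUC5AC by −0.09 (−0.32 to 0.15). For some genes the interval left out 0 although the adjusted test was not passed: ASNS differed by 0.25 (0.13 to 0.37) and PCK2 by 0.23 (0.09 to 0.37), and MT2A by 0.24 (0.04 to 0.45). These intervals are not adjusted for the number of genes tested, so they do not show a step with dose. Against the shared vehicle libraries 1402 genes (8.03%) were called at 20 µg/mL and 5781 (33.1%) at 500 µg/mL.

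At 500 against 100 µg/mL, by contrast, 2921 genes were called (16.7% of genes tested), 1462 higher (8.37%) and 1459 lower (8.36%), with 121 (0.693%) and 42 (0.241%) changed by at least 2-fold. Of 24 genes of the integrated stress response 21 rose and 0 fell, with a median of 1.00. STC2, a secreted glycoprotein, was at 107, 128 and 132 CPM at 500 µg/mL and 23.5, 23.5 and 23.9 CPM at 100 µg/mL (2.37 ± 0.06, adjusted p = 2.6e-18), and DDIT3 was at 27.9, 38.5 and 33.8 CPM at 500 µg/mL and 7.40, 8.59 and 7.42 CPM at 100 µg/mL (2.10 ± 0.11, adjusted p = 6.9e-13). SESN2, lower at 100 µg/mL than with vehicle, averaged 37.4 ± 3.42 CPM at 500 µg/mL and 11.2 ± 0.420 CPM at 100 µg/mL (SD, n = 3 each). The heat shock list fell as a whole, with 15 of 15 members called, as did 26 of 27 mitosis genes; among DNA replication genes 24 of 32 were called lower. NR4A1 fell by 0.57. FOSL1 turned round, at 35.9, 45.0 and 43.3 CPM at 500 µg/mL and 20.5, 20.3 and 23.0 CPM at 100 µg/mL (0.96 ± 0.11, adjusted p = 4.3e-07), and MUC5AC rose by 0.43 (adjusted p = 0.010). The fibrinogen genes FGA, FGB and FGG fell by 0.98, 1.07 and 0.82. CYP1A1 did not pass the test (0.27 ± 0.15, adjusted p = 0.27), whereas CYP1B1 rose by 0.28 and TIPARP by 0.38 (adjusted p = 0.0021 and 0.00084). MT1X fell by 0.57 (adjusted p = 0.00017).

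**Figure D3:**
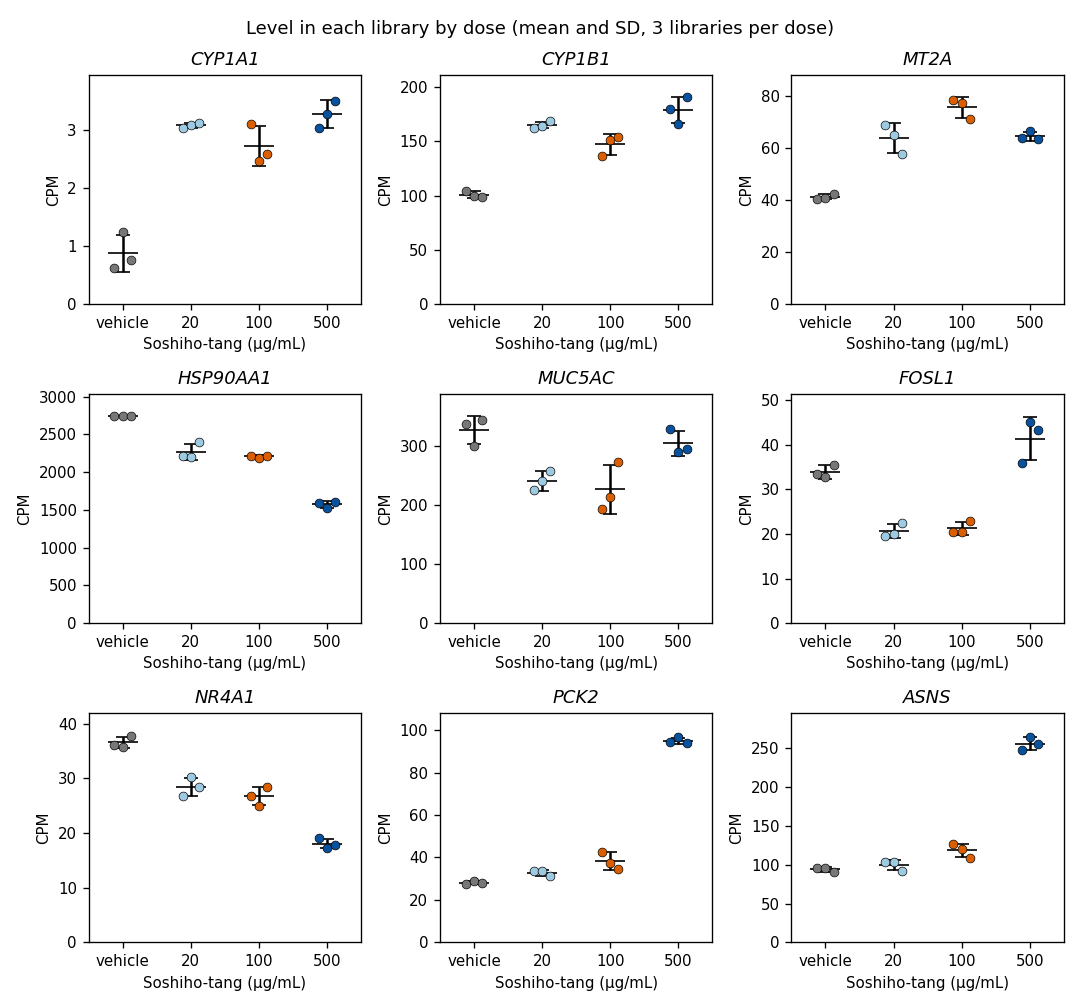
CPM of 9 genes in each library by Soshiho-tang dose (vehicle, 20, 100 and 500 µg/mL); points are libraries, bars the mean and SD of 3, and all axes start at 0. CYP1A1 lies near 3 CPM at every dose, NR4A1 and HSP90AA1 are lower at 100 than with vehicle and lower again at 500 µg/mL, FOSL1 is low at 20 and 100 µg/mL only, and PCK2 and ASNS climb mostly at 500 µg/mL.

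**Figure D4:**
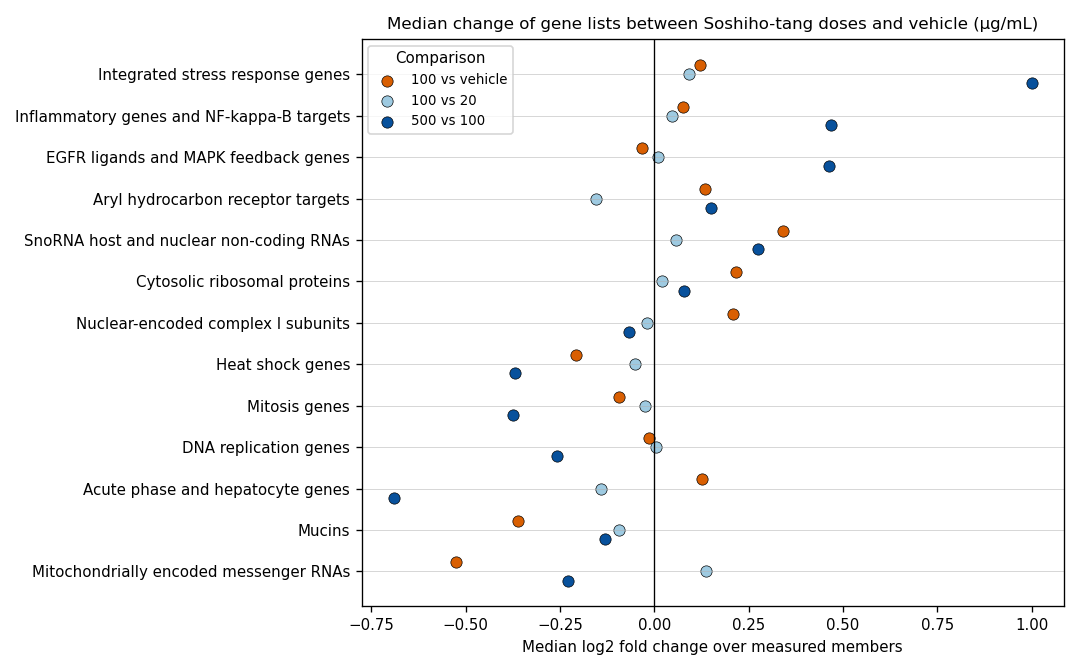
Median log2 fold change over the measured members of 13 gene lists for Soshiho-tang 100 µg/mL against vehicle (orange), 100 against 20 µg/mL (light blue) and 500 against 100 µg/mL (dark blue); the comparisons share libraries. Integrated stress response genes have a median of 0.12 against vehicle and 1.00 at 500 against 100 µg/mL, while mitochondrial messenger RNAs have −0.53 against vehicle.

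Other formulas at 100 µg/mL gave a test of what is particular to Soshiho-tang. Against Yijin-tang no gene was called by edgeR (671 at an unadjusted p below 0.05, 3.84%) and 6 by DESeq2, and against Okbyeongpung-san no gene was called by edgeR (821 at an unadjusted p below 0.05, 4.7%) and 3 by DESeq2. The 95% interval lay within 1.5-fold for 73.0% of genes against Yijin-tang and 69.9% against Okbyeongpung-san. CYP1A1 was at 3.11, 2.47 and 2.60 CPM with Soshiho-tang, 3.499, 3.48 and 3.31 CPM with Yijin-tang and 2.57 and 2.19 CPM with Okbyeongpung-san. The log2 difference was −0.33 (95% interval −0.64 to −0.01) from Yijin-tang and 0.20 (−0.18 to 0.57) from Okbyeongpung-san. MT2A differed by 0.12 (−0.09 to 0.33) from Yijin-tang and 0.10 (−0.14 to 0.33) from Okbyeongpung-san, and HSP90AA1 by −0.01 from each. MUC5AC was at 192, 213 and 272 CPM with Soshiho-tang, 181, 201 and 171 CPM with Yijin-tang and 235 and 204 CPM with Okbyeongpung-san. NR4A1 was at 26.8, 25.0 and 28.5 CPM with Soshiho-tang, 20.0, 23.1 and 24.7 CPM with Yijin-tang and 24.5 and 23.1 CPM with Okbyeongpung-san. Its log2 difference was 0.24 (0.08 to 0.40) from Yijin-tang and 0.17 (−0.01 to 0.35) from Okbyeongpung-san. TUBA1B-AS1 was below 1 CPM with all 3 extracts. The mitochondrial messenger RNAs summed to 79211 to 90181 CPM with Soshiho-tang and 64872 to 74662 CPM with Yijin-tang. With Okbyeongpung-san they summed to 66438 and 66914 CPM, and with vehicle to 108910 to 114409 CPM. The ribosomal sum was 23026 to 24687 CPM with Yijin-tang and 23505.5 and 22361 CPM with Okbyeongpung-san, above vehicle as with Soshiho-tang. Against the shared vehicle libraries 1879 genes were called for Soshiho-tang, 2567 (14.7%) for Yijin-tang and 1657 (9.49%) for Okbyeongpung-san.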

How the data were processed

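The authors deposited expected counts per gene, which per the submitters' processing notes involved RSEM 1.3.3, STAR 2.7.3a, Trim Galore 0.6.5 and FastQC 0.11.9 on a build named hg38 or GRCh38. Neither the annotation release nor the strand setting is given in the sources used here. Per the labels' protocols the kit was directional and the vehicle 0.1% DMSO; the series text gives another concentration, and no value here decides between them. The table held 60675 Ensembl identifiers; 30 empty columns were left out. Expected counts, of which 9.09% to 11.6% per library were not whole, were rounded. Positions, lengths and gene types are from GENCODE release 29.

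One edgeR fit (version 4.0.16, R 4.3.3) took in the 27 libraries of 10 replicated groups (TMM normalisation, filterByExpr, glmQLFit and glmQLFTest), which left 17461 genes and a biological coefficient of variation of 6.887%. Every adjusted p of a gene is from this fit, by Benjamini-Hochberg over all genes tested, unless another setting is named. A standard error (SE) is the absolute log2 fold change over the square root of F. CPM are counts scaled to TMM-adjusted library totals. Statistics were tested on simulated data. DESeq2 1.42.0, other size factors, no filter, only the groups compared, a replicate block, batch E alone, no mitochondrial genes, a length and GC offset, and each library left out were the alternatives.

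Named genes were the 12 largest called changes each way among genes at a mean log2 CPM of 2 or more whose groups did not overlap, up to 3 called members of each list, and a set list; TUBA1B, RPS12, NDUFA1 and further list members were named after their values were seen. The gene lists, written from textbook knowledge, and the samples were chosen with earlier results of these data known.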

Additional observations from a re-analysis of the deposited data

How the results depend on the processing

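For Soshiho-tang 100 µg/mL against vehicle, leaving out 1 of the 6 libraries gave 682 to 2136 called genes, beside 1879 in all (334 to 1099 higher and 348 to 1037 lower). Of the 1879 genes, 668 remained called in the same direction without Soshiho-tang replicate 1 and 1578 without replicate 3. With no such library left out, counts ranged from 1858 to 2510. With a length and GC offset 1154 were higher and 1356 lower, and with DESeq2 916 and 1023. Of 101 called named genes 61 kept their call under all 14 alternatives, 40 lost it under at least 1 and 0 changed sign. Among uncalled genes CDKN1A (0.01) changed sign, to −0.0003 with DESeq2 and with its size factors, −0.0255 with the offset, and −0.0285 to 0.0462 with single libraries left out. With single libraries left out GDF15 ran from −0.0398 to 0.1336, HMGCS1 from −0.0574 to 0.0261, AHRR from −0.2278 to 0.0916, MUC20 from −1.0289 to 0.0762 and RPS12 from −0.0005 to 0.4161; the cause was not tested.

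Against 20 µg/mL, 61 genes were called with no filter on low counts and 0 otherwise. Against Yijin-tang 110 were called with no filter, 6 with DESeq2 and 3 with the offset; against Okbyeongpung-san 109 with no filter, 3 with DESeq2 and 1 in batch E alone, where a lone library is assumed to vary like the other groups. For 500 against 100 µg/mL counts ran from 1948 to 4014.

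Same-numbered Soshiho-tang 100 µg/mL and vehicle libraries did not deviate together (correlations −0.025, −0.023 and −0.019), and neither did unlike-numbered ones (−0.006 to 0.028). These values show no sign of pairing by number but cannot exclude that same-numbered libraries were handled together. Between extract groups some same-numbered libraries deviated together, but so did some with unlike numbers. The same-number correlations for replicates 1, 2 and 3 were 0.19, −0.08 and 0.20 with Soshiho-tang at 20 µg/mL and 0.07, 0.05 and 0.24 at 500 µg/mL. With Yijin-tang they were 0.12, 0.02 and 0.16, and with Okbyeongpung-san −0.055 and −0.031 for replicates 2 and 3. Unlike-number correlations ran from −0.28 to 0.12 with 20 µg/mL, −0.19 to 0.13 with 500 µg/mL and −0.23 to 0.13 with Yijin-tang. Pairing by number between extract groups is therefore not settled. With the replicate block 2101 genes were called against vehicle, 3183 at 500 against 100 µg/mL, and 0 in the other comparisons. The block ended no call of a named gene. The mitochondrial share stayed 2.28 to 2.75 percentage points below vehicle with any library left out. Depth limits weakly expressed genes such as CYP1A1 and MUC2.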
